A study of Mus musculus with 4 samples.

Results

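Oxidative phosphorylation genes were followed in MC3T3-E1 cells, a mouse preosteoblast line, cultured in normal or osteogenic medium. The members were the genes whose symbol in GEO's annotation of the array starts with Nduf, Uqcr, Cox4 to Cox8 or Atp5, or with Sdh and a letter from a to d, together with Cycs and Cyc1. Assembly factors named Ndufaf were left out. The rule gave 88 genes of the 18193 on the array, read by 180 probe sets, and used no measured value. They comprised 36 genes named for complex I, 4 for complex II, 9 for complex III, 17 for complex IV and 17 for ATP synthase, the cytochrome c gene Cycs, and 4 Sdhaf genes, which encode assembly factors of complex II and entered through their prefix.

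The series has 4 Affymetrix Mouse Genome 430 2.0 arrays, 1 for each of 4 groups: normal medium at day 3, osteogenic medium at day 3, normal medium at day 6 and osteogenic medium at day 6. All cells were of the same line, derived per the labels from the calvaria of newborn C57BL/6 mice, carried no stated genetic change and grew in MEM α with 10% fetal bovine serum. Osteogenic medium differed from normal medium by its ascorbic acid 2-phosphate (150 µM) and its beta-glycerophosphate (10 mM). With 1 array per group no difference between a pair of groups has a replicate check, and no test of it was made.

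Oxidative phosphorylation makes ATP in the inner mitochondrial membrane. Complexes I and II take electrons from NADH and succinate, complex III passes them to cytochrome c, and complex IV hands them to oxygen, while complexes I, III and IV pump the protons that drive ATP synthase. Nearly all of these subunits are encoded in the nucleus, and many of their promoters are known for binding sites of NRF1 and of ETS factors such as GABP. Osteoblasts that lay down matrix are known to use both glycolysis and mitochondrial respiration.

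The promoters are shown because both motif families were more frequent among the members than among all genes of the table. Windows of 300 bases, from 250 before to 50 after the gene start, came from RefSeq (GRCm38.p6) and were found for 72 members. The long NRF1 motif, whose 10 letters are the capitals in the stretch of Atp5k shown here, was searched on both strands and was in 4 of the 72 (5.56%) against 1.07% of 27025 genes. A shorter form, TGCGCA, overlaps the long motif where a T precedes it or an A follows it, and was in 19 (26.4%) against 8.79%. The ETS motif CCGGAAG was in 20 (27.8%) against 9.93%, also on both strands. Written 5′ to 3′ on the gene's strand, with motif letters in capitals, 3 stretches of 60 bases hold the long NRF1 motif:
Atp5g2, chr15:102671055-102671114, minus strand: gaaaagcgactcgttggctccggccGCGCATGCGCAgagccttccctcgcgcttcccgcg
Atp5k, chr5:108434415-108434474, minus strand: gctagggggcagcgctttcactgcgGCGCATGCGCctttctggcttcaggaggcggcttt
Cox6a1, chr5:115349086-115349145, minus strand: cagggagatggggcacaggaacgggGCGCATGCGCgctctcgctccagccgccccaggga
In the stretch of Atp5g2 the capitals also cover an adjoining copy of the short form. The next 4 hold the ETS motif, in either orientation, and belong to members whose log2 difference between the media at day 3 was among the highest of their group:
Ndufb6, chr4:40279612-40279671, minus strand: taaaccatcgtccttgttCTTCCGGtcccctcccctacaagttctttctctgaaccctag
Uqcr11, chr10:80406855-80406914, minus strand: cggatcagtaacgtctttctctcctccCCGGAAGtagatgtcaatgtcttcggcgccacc
Atp5e, chr2:174464171-174464230, minus strand: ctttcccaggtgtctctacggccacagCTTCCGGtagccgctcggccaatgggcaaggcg
Sdhaf3, chr6:6955864-6955923, plus strand: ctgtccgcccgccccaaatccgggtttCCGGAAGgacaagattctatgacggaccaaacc

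A match of letters is a description of the window and not a binding site. The 4 ETS stretches were picked by their day 3 difference and do not stand for the rest. The other members with an ETS motif before the start had day 3 differences from -0.20 (Uqcrh) to 0.38 (Atp5l), and of them Atp5j and Cox6a1 were also below zero. No motif was found in 38 of the 72 windows, and 5 held both the short NRF1 form and the ETS motif. Among members that were measured, the 20 with an ETS motif had a median log2 medium difference of 0.26 at day 3 and the 46 without had one of 0.11. At day 6 the same medians were -0.08 and -0.05. The 18 with the short NRF1 form had medians of 0.09 at day 3 and 0.05 at day 6, and the 48 without it 0.12 and -0.09. The 4 with the long NRF1 motif had medians of 0.01 and -0.04, and the 62 without it 0.12 and -0.08. No test of these differences was made.

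Signals were scaled to a common 75th percentile, and values under the pooled median of all probe sets, a signal of 57.8, were set to that floor because the table holds no detection calls. Of the 88 members, 82 were above the floor on at least 1 array and 80 on all 4. The 6 at the floor on every array were Cox6b2, Cox7a1, Cox7b2, Cox7c, Cox8b and Ndufb4. Cox7a1 and Cox8b encode the heart and skeletal muscle forms of their subunits, and Cox6b2 is known from testis. Ndufb4 and Cox7c encode subunits that most tissues make, and their floor values are those of the probe sets that name only them. A further 10 probe sets name a member together with another gene and were not used. The line's labelled identity was checked on osteoblast markers: Sp7, Alpl, Col1a1 and Ibsp were above the floor on all 4 arrays, with Ibsp, a bone matrix protein, at 386 and 4468 at day 3 and at 255 and 11064 at day 6 in normal and osteogenic medium. Listed markers of adipocytes, heart muscle and brown fat were at the floor on every array, those of leukocytes were too except Csf1r, and of the endothelial ones Kdr alone was above it, on 1 array. Of the skeletal muscle markers Acta1 was above it on all 4 arrays and Ckm on 3. The chondrocyte markers Col2a1, at 854 to 4134, and Sox9 were above it on all 4. Runx2 and Bglap of the osteoblast list and Plin1 and Cfd of the adipocyte list had no probe set that names them alone and were not read. The ratio of the 3′ to the 5′ control of Gapdh lay between 0.756 and 0.769 over the arrays, while the 5′ control of 18S ribosomal RNA had a deposited signal of 746 on the osteogenic day 6 array against 5202 to 9162 on the other arrays.

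At day 3 most members had a somewhat higher signal in osteogenic medium. Of 81 measured members, 60 lay above zero and 21 below, with a median log2 difference of 0.11, against 51.0% of 11861 measured genes above zero and a median of 0.01 over all of them. The middle of the members' distribution was narrow, with quartiles of -0.01 and 0.27. Past 1.5-fold, a log2 difference of 0.585, there were 4 members, all higher in osteogenic medium (Atp5md, Ndufs8, Ndufb8 and Ndufb6), where 8.46% of all measured genes were higher by that much, and none was lower by that much, against 7.21%. No member reached 2-fold. The share of members above zero was thus 74.1%, while few lay far from it. Member signals are high on this array, so the same shares were taken over genes of mean signal 2000 or more, a limit chosen after seeing the data. There 55 of 72 such members lay above zero, against 53.4% of 2473 such genes. By 1.5-fold 4 of the 72 were higher and 0 lower, against 135 and 90 of the 2473. The share higher by that much was thus close to that of genes of like signal. For the difference of a single gene, the spread between probe sets of a gene, an error of the probe sets alone, was 0.32 over all genes and 0.20 over the members. Because the RNA came from whole cultures and arrays were scaled to each other, fewer cells of a kind and less RNA per cell cannot be told apart.

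At day 6 the direction no longer leaned to the osteogenic medium. Of 82 measured members 36 lay above zero and 46 below, with a median of -0.06 and quartiles of -0.18 and 0.20, where 51.2% of 11901 genes were above zero and 48.8% below, with a median of 0.01. Past 1.5-fold there were 5 members, all higher in osteogenic medium (Cox6a2, Ndufa4l2, Atp5md, Sdhaf3 and Uqcrq), against 11.3% of all genes. Past 2-fold there were 3 (Cox6a2, Ndufa4l2 and Atp5md), against 4.18%. None was lower by 1.5-fold, against 9.15%. The share of members higher by 1.5-fold was thus below that of all genes. The share past 2-fold, 3 of 82, was close to it, and Ndufa4l2 among them is a bound set by the floor. Over genes above the limit of mean signal used at day 3, 2 of 72 members were higher by 1.5-fold and 1 by 2-fold. Of the 2473 genes above that limit, 182 and 53 were.

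**Figure D1:**
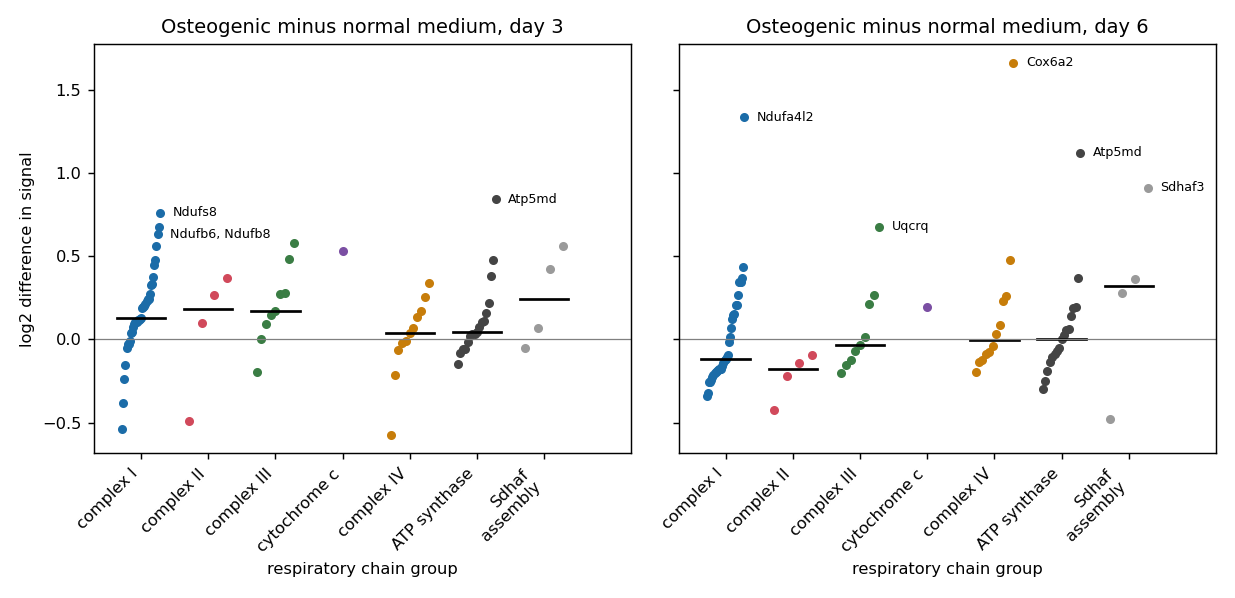
Log2 difference in signal, osteogenic minus normal medium, for each measured member (points, coloured by group on the horizontal axis) at day 3 (left, 81 members) and day 6 (right, 82 members), with the median of each group of 2 or more as a black line and members past 1.5-fold named. The complex I median was 0.13 at day 3 and -0.12 at day 6, and no member was lower by 1.5-fold at either day. Ndufa4l2 is drawn at the floor where it was not above it.

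Each member was also ordered over the 4 arrays. Of the 80 members above the floor on all arrays, 53 had their highest signal on the osteogenic day 3 array, 15 on normal day 3, 9 on osteogenic day 6 and 3 on normal day 6. Over all 10250 genes above the floor on all arrays the same shares were 28.0%, 22.3%, 29.2% and 20.4%, and of those of mean signal 2000 or more 33.6% were highest on osteogenic day 3. The lowest signal was on the osteogenic day 6 array for 43 members, against 30.6% of all genes and 39.8% of the bright ones, on normal day 6 for 26 (22.2%), on normal day 3 for 7 (22.5%) and on osteogenic day 3 for 4 (24.8%). Complex I had 25 of 34 members highest on osteogenic day 3, ATP synthase 12 of 17, complex III 7 of 9, complex II 3 of 4 and complex IV 5 of 11. The same array therefore carries both the day 3 medium difference and the osteogenic day comparison, and what in that array or its culture goes with this order was not tested.

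**Figure D2:**
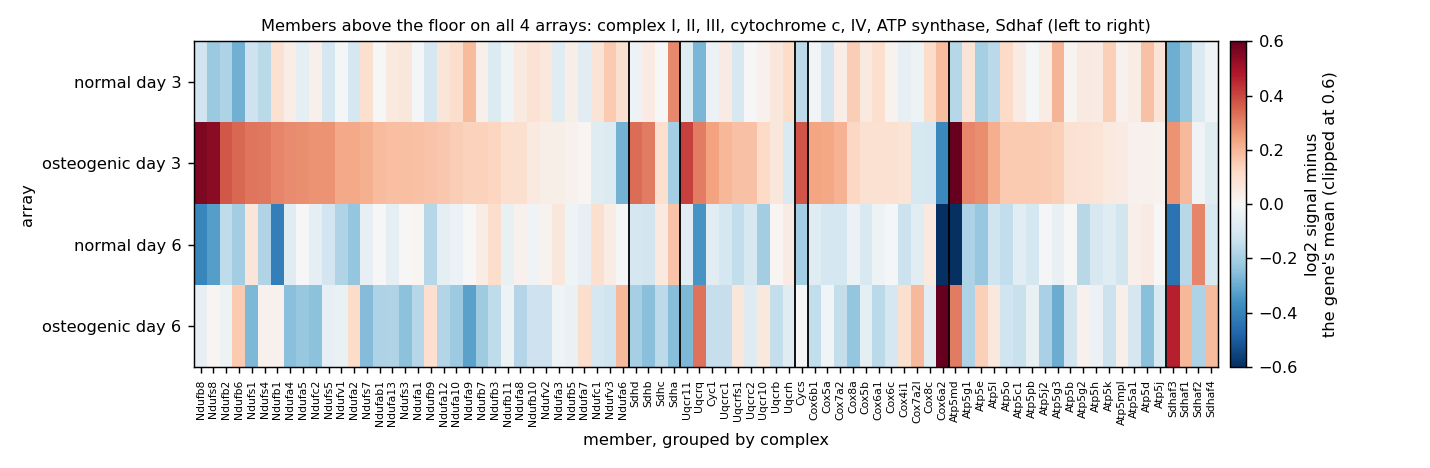
Log2 signal minus the gene's mean over the 4 arrays (colour, clipped at 0.6 in either direction) for the 80 members above the floor on all arrays (columns, by complex and then by their value on the osteogenic day 3 array) on each array (rows, 1 per group). The osteogenic day 3 row is the highest for 53 members and the osteogenic day 6 row the lowest for 43.

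Complex I oxidises NADH and is the largest complex of the chain. At day 3, 27 of its 35 measured members were above zero, with a median of 0.13, and at day 6 14 of 35, with a median of -0.12. Signals from here on are given for normal and then osteogenic medium at day 3, followed by the same pair at day 6. Ndufs8, a core subunit that carries iron-sulfur clusters, had signals of 6844, 11614, 6337 and 8046, and log2 differences of 0.76 at day 3 and 0.34 at day 6. Both osteogenic arrays were above both normal arrays. Of its 6 probe sets, the dimmest had a day 3 difference of -1.45 and the others between 0.20 and 0.76, and with the mean of all probe sets in place of the brightest the difference was 0.13. Ndufb8, an accessory subunit of the membrane arm, had signals of 5991, 9587, 4960 and 6288, with differences of 0.68 and 0.34. With only the probe sets that carry no suffix for shared sequence, its day 3 difference was 0.09. Ndufb6, of the same arm, had 6218, 9642, 6571 and 8484, with differences of 0.63 and 0.37, and again both osteogenic arrays were the higher ones. Its other probe set gave 0.33 and 0.23, neither past 1.5-fold.

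The subunits that carry electrons through complex I were not of a single pattern. Ndufs1, the largest iron-sulfur subunit, had signals of 1393, 1899, 1596 and 1262, so that it was highest on osteogenic day 3 and lowest on osteogenic day 6. Its medium difference was 0.45 at day 3 and -0.34 at day 6, the lowest of the complex at that day. Ndufv1, which binds the flavin and NADH, had 4540, 5336, 4020 and 4443, with differences of 0.23 and 0.14. Ndufa9, an accessory subunit, had 5111, 4933, 4479 and 3587, lower in osteogenic medium by -0.05 and -0.32. Ndufa6 ran against most of the complex at day 3, with 4223, 3239, 3923 and 4522 and differences of -0.38 and 0.20. Ndufb1 had low signals of 240, 277, 170 and 230, with differences of 0.20 and 0.44, and at day 6 it was the highest of the complex among members above the floor on all arrays.

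Ndufa4 and Ndufa4l2 keep their complex I names, although the Ndufa4 protein is now counted as a subunit of complex IV. Ndufa4 had signals of 13494, 15993, 12486 and 11048, and log2 medium differences of 0.25 and -0.18. Ndufa4l2, a related gene known to be induced in low oxygen, was above the floor on only 2 arrays, normal day 3 with 84.2 and osteogenic day 6 with 146. It was therefore at least 2.53-fold higher in osteogenic medium at day 6 and at least 1.46-fold lower at day 3, both bounds set by the floor. With the floor at the 60th percentile the day 6 log2 difference was 0.29.

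Complex II, the succinate dehydrogenase of the citrate cycle, was below zero in 4 of 4 members at day 6, with a median of -0.18, and above zero in 3 of 4 at day 3, with a median of 0.18. Sdha, the flavin-binding catalytic subunit, was the member lower in osteogenic medium at both days, with signals of 4582, 3254, 4229 and 3147 and differences of -0.49 and -0.43. Both osteogenic arrays lay below both normal arrays. Its other bright probe set had differences of -0.38 and -0.62. With the mean of all its probe sets they were -0.12 and -0.26, but the remaining probe sets were at or near the floor. Sdhb, the iron-sulfur subunit, had 4908, 5900, 4407 and 3987, with differences of 0.27 and -0.14. Sdhc had 7483, 8022, 7804 and 6712, with differences of 0.10 and -0.22, and Sdhd 3017, 3893, 2864 and 2683, with differences of 0.37 and -0.09; both anchor the complex in the membrane. All 3 were highest on the osteogenic day 3 array and lowest on the osteogenic day 6 array. For Sdhc this rests on the probe set used, since its other one had 0.25 and 0.27 and the mean of both at day 6 was 0.03, above zero.

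The Sdhaf assembly factors were above zero in 3 of 4 members at each day. Sdhaf3 had signals of 541, 798, 487 and 916, with differences of 0.56 and 0.91, so that it was higher in osteogenic medium at both days. Sdhaf1, which like Sdhaf3 serves the maturation of the iron-sulfur subunit, had 599.8, 804, 627 and 806, with differences of 0.42 and 0.36. Sdhaf2, needed to attach flavin to Sdha, had 1413, 1481, 1839 and 1319, with differences of 0.07 and -0.48. Its other probe set had -0.12 and 0.03, the opposite direction at both days. Sdhaf4 had 1859, 1795, 1776 and 2152, with differences of -0.05 and 0.28. With the mean of probe sets the day 6 difference of Sdhaf3 was 0.46, but its other probe set was at the floor on every array and added no difference.

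Complex III had 8 of 9 members above zero at day 3, with a median of 0.17, and 4 of 9 at day 6, with a median of -0.03. Uqcrq, a small accessory subunit, was highest in the complex at both days, with signals of 4549, 6804, 4306 and 6893 and differences of 0.58 and 0.68. Its osteogenic arrays were alike, and so were its normal ones. With the mean of its probe sets the day 6 difference was 0.27, but its other probe sets were at or near the floor, with signals of 76.1 or less, which draws the mean toward zero. Uqcr11 had 6965, 9725, 6996 and 6073, with differences of 0.48 and -0.20, and thus stood out on the osteogenic day 3 array alone. Uqcr10 had 2639, 2812, 2245 and 2706, with differences of 0.09 and 0.27.

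The electron carriers of complex III and cytochrome c lay above zero at day 3. Uqcrfs1, the Rieske iron-sulfur protein, had signals of 5122, 6194, 4954 and 5739, and differences of 0.27 and 0.21. Cyc1, cytochrome c1, had 3496, 4235, 3427 and 3265, with differences of 0.28 and -0.07. Cycs, the mobile carrier between complexes III and IV, had 9040, 13091, 8738 and 10000.4, with differences of 0.53 and 0.19, and both osteogenic arrays were above both normal ones. Among the remaining subunits, Uqcrb had 25534, 25594, 24570 and 22060, with differences of 0.00342 and -0.16, and Uqcrh 17129, 14949, 16461 and 15128, with differences of -0.20 and -0.12. Their other probe sets differed from these: that of Uqcrh had 0.23 and 0.18, the opposite direction at both days, and that of Uqcrb 0.41 and -0.10.

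Complex IV had 6 of 11 measured members above zero at day 3 and 6 of 12 at day 6, with medians of 0.04 and -0.00282. Among the subunits that most cells make, Cox4i1, the common form of subunit IV, had 19859, 21758, 18792 and 22009, with differences of 0.13 and 0.23. Cox5a had 10485, 13274, 10498 and 11160, with differences of 0.34 and 0.09, and Cox6b1 13155, 15665, 12673 and 12024, with differences of 0.25 and -0.08. Cox6a1 had 37032, 36775, 33781 and 30793, with differences of -0.01 and -0.13. Cox8a had 12886, 12668, 11347 and 9911, with differences of -0.02 and -0.20. None of these 5 reached 1.5-fold at either day.

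Several complex IV subunits have tissue forms, and these differed in what they showed. Cox6a2, the heart and skeletal muscle form, had signals of 356, 239, 189 and 598, that is -0.57 at day 3 and 1.66 at day 6, the highest day 6 difference of all members. Its other probe set gave -0.61 and 1.08. The skeletal muscle markers Myod1, Myog and Myh1 were at the floor on all 4 arrays, and the summed signal above the floor of the 5 listed muscle markers, which came from Ckm and Acta1, was 172, 108, 199 and 128 and thus not highest on the array where Cox6a2 was. Most of that sum was Acta1, and Ckm taken alone was highest on that array, at 71.2, close to the floor. The 4 listed chondrocyte markers, of which Col2a1 and Sox9 were above the floor and Acan and Matn1 were not, summed to 2549, 3688, 2411 and 5972, highest on that array. The summed signal of the 4 osteoblast markers, most of it Col1a1, was 62207, 59995, 50852 and 63971 and also highest there. Of these markers only Ibsp was itself highest there, at 11064, while Col1a1 was highest on normal day 3, at 60664. Sp7 and Alpl were highest on osteogenic day 3. The part of either list in the result was not tested. Cox4i2, a form known from lung, was above the floor on 1 array only, osteogenic day 6, at 80.4. Cox7a2 had 18103, 20354, 16392 and 15937, with differences of 0.17 and -0.04. Cox7a2l, which is known to join complexes III and IV into supercomplexes, had 13612, 13035, 13273 and 15912, with differences of -0.06 and 0.26. Cox8c had 266, 230, 258 and 237, with differences of -0.22 and -0.12.

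ATP synthase had 12 of 17 members above zero at day 3 and 8 of 17 at day 6, with medians of 0.04 and -0.000331. Atp5md, a small membrane subunit tied to assembly of synthase dimers, was the exception in size: signals of 7335, 13173, 4703 and 10235 gave differences of 0.84 and 1.12, a fold of 1.80 at day 3 and 2.18 at day 6. Both osteogenic arrays were above both normal ones, and over the alternative settings run the difference stayed past 1.5-fold at each day. It has 1 probe set, so no agreement between probe sets can be given. Atp5e, of the central stalk, had 9205, 12803, 9029 and 11668, with differences of 0.48 and 0.37. By the probe sets used, the catalytic head was nearly level between media. Atp5a1 had 10755, 10627, 10664 and 9724, with differences of -0.02 and -0.13, and Atp5b 18776, 19765, 18530 and 17208, with differences of 0.07 and -0.11. The other bright probe set of Atp5a1 had -0.23 and -0.24, lower in osteogenic medium at both days. Atp5d had 13582, 12239, 12421 and 10119, with differences of -0.15 and -0.30, the lowest of the synthase at both days. Atp5k had 13803, 13026, 11885 and 11448, with differences of -0.08 and -0.05. Its other probe sets were above zero at day 3, at 0.44 and 0.03, and below it at day 6, at -0.10 and -0.13.

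The c ring, through which protons pass, is made from identical mature proteins encoded by Atp5g1, Atp5g2 and Atp5g3. Atp5g1 had signals of 6221, 7230, 5201 and 5200.2, with differences of 0.22 and -0.000331. Atp5g2 had 11134, 11374, 9546 and 10906, with differences of 0.03 and 0.19. Atp5g3 had 31021, 29757, 26127 and 21944, with differences of -0.06 and -0.25. The 3 genes thus had 3 different patterns over the media, while each had a lower signal at day 6 than at day 3 in both media.

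**Figure D3:**
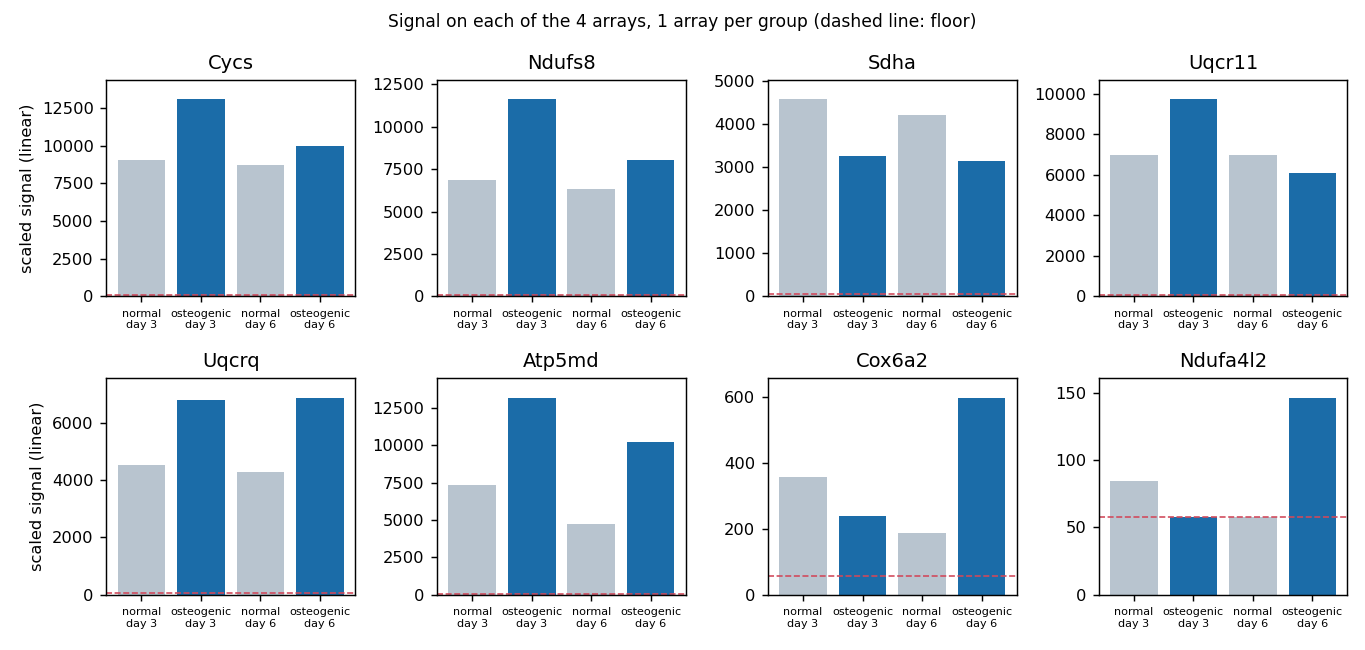
Scaled signal (linear axis from 0) on each of the 4 arrays, 1 per group (grey bars normal medium, blue bars osteogenic medium), for 8 members, with the floor of 57.8 as a dashed line; with 1 array per group there are no error bars. Atp5md, Uqcrq, Cycs and Ndufs8 were above both normal arrays on both osteogenic arrays and Sdha below them, while Uqcr11 stood out at osteogenic day 3, and Cox6a2 and Ndufa4l2 at osteogenic day 6.

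From day 3 to day 6 the members were mostly lower in osteogenic medium. There 69 of 82 members lay below zero and 13 above, with a median log2 difference of -0.25 and quartiles of -0.36 and -0.07, against 50.1% of 11947 genes below zero and a median of -0.00115 over all genes. Of the 72 members of signal 2000 or more, 66 lay below zero with a median of -0.26, against 61.3% of such genes and a median of -0.09. By complex, 32 of 35 complex I members, 4 of 4 of complex II, 7 of 9 of complex III, 7 of 12 of complex IV and 17 of 17 of ATP synthase were lower at day 6, with medians of -0.29, -0.40, -0.21, -0.17 and -0.20. Past 1.5-fold were 3 members that were lower (Uqcr11 at -0.68, Ndufb8 at -0.61 and Ndufs1 at -0.59), against 8.49% of all genes, and 2 that were higher, both past 2-fold (Ndufa4l2 at 1.34, a bound, and Cox6a2 at 1.32), against 10.8% past 1.5-fold and 3.70% past 2-fold. The osteogenic day 6 array is also the array with the low 18S control; its part in the result was not tested.

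In normal medium the median over the same days was nearer to zero. Of 81 members 64 lay below zero, with a median of -0.08, against 52.3% of 11736 genes, and 58 of 72 bright members, against 58.2% of bright genes. Past 1.5-fold were 2 members, both lower at day 6 (Cox6a2 at -0.92 and Atp5md at -0.64), against 3.84% of all genes, and none was higher by that much, against 4.05%. With arrays set to a common median in place of a common 75th percentile, 39 of 81 members lay above zero with a median of -0.0037, and 59.6% of all genes with a median of 0.06, so the members' median stood below that of all genes under both scalings. The difference between the media in this shift is the change of the medium difference between days, which had a median of -0.16, with 60 of 82 members below zero, against 50.6% of 12503 genes. Of bright members 57 of 72 lay below zero with a median of -0.18, against 1447 of 2473 bright genes with a median of -0.07. By 1.5-fold 3 members were higher in this change (Cox6a2, Ndufa4l2 and Ndufa6), against 12.1%, Cox6a2 at 2.24 and Ndufa4l2 at 1.88, a bound, being past 2-fold, against 4.42%, and 2 were lower (Ndufs1 and Uqcr11), against 9.83%. Both are made from the same 4 arrays and are not separate evidence.

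**Figure D4:**
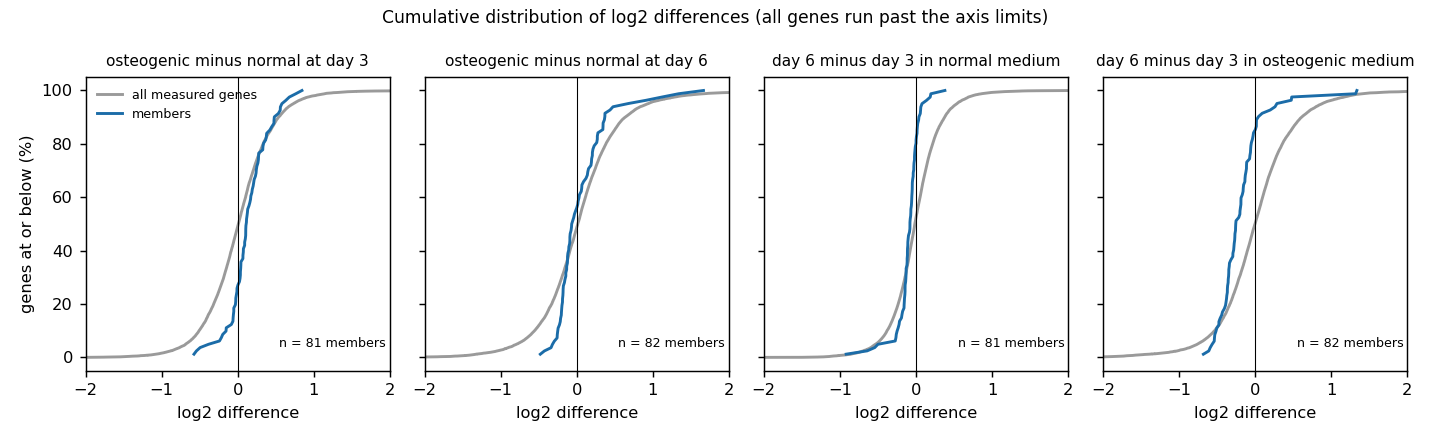
Share of genes (percent, vertical axis) at or below each log2 difference (horizontal axis) for the measured members (blue) and all measured genes (grey) in 4 comparisons. The members' curve lies right of zero at day 3 (60 of 81 above zero) and left of it for day 6 against day 3 in osteogenic medium (69 of 82 below zero), and is steeper than that of all genes in each panel.

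Taken across both days, 30 of 81 members were above zero in osteogenic medium at both, 16 were below at both, 30 were above at day 3 and below at day 6, and 5 the reverse. Over 11000 genes these patterns held 31.5%, 30.3%, 19.2% and 18.9%. Across members, which are not independent replicates and share the arrays, the day 3 and day 6 differences had a Pearson r of 0.12 and a Spearman rho of 0.32, and over 11000 genes 0.38 and 0.33. Among the 17 ATP synthase genes r was 0.89 and rho 0.63, and among the 11 of complex IV r was -0.72 and rho -0.00909, with Atp5md far from the rest in the former and Cox6a2 in the latter.

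The days are the only repeats of the medium contrast, so an additive fit of medium and day was made with limma over 11259 genes, with 1 residual degree of freedom. For each gene that residual is the disagreement between the days in the medium contrast, so a shift from day to day counts as error. For the medium, 0 of 81 members and 0 genes in all passed an adjusted p of 0.05 by limma with Benjamini-Hochberg adjustment over all genes. The lowest adjusted p was 0.216 among members and 0.101 over all genes. At an unadjusted p under 0.05 by limma there were 6 members (Atp5md, Sdhaf3, Uqcrq, Ndufs8, Ndufb6 and Ndufb8), all higher in osteogenic medium, against 14.8% of all genes. With each gene's own variance in place of limma's moderated one there were also 6 members, against 7.53%, but they were Cox5b, Ndufa2, Ndufb9, Sdha, Sdhaf1 and Uqcrq. Only Uqcrq was in both sets, and Sdha was lower in osteogenic medium, with an effect of -0.46. The share of members was below or close to the background. Atp5md had a medium effect of 0.98 over the days (n = 2 days), with an adjusted p of 0.216 by limma, and was higher in osteogenic medium at 2 of 2 days. Its standard error of 0.19 is limma's moderated one, which draws on the variances of all genes and is not this gene's own spread over the days. For the day, again 0 members and 0 genes passed, with a lowest adjusted p of 0.455 over all genes by limma. With moderated variances 1 member, Atp5md, had an unadjusted p under 0.05, against 7.35%, and with own variances 6 other members had one, against 5.22%. The members' median day effect was -0.15, with 71 of 81 below zero, and their median medium effect 0.05, with 50 of 81 above zero; the medians over all genes were -0.00386 and 0.0065.

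Genes that build or feed the chain were followed by fixed lists, described by counts alone. Mitochondrial ribosomal proteins, which make the subunits encoded by mitochondrial DNA, were above zero in 69 of 76 at day 3, with a median of 0.28, and in 60 of 76 at day 6, with a median of 0.16, against 51.0% and 51.2% of all genes. Past 1.5-fold higher were 13 of 76 at day 3, against 8.46% of all genes, and 6 of 76 at day 6, against 11.3%, a share below the background. Mrpl12 had signals of 3774, 7903, 3448 and 4877, Mrps11 756, 1671, 884 and 1056, and Mrpl33 1383, 2601, 1233 and 3635, so that each was higher in osteogenic medium at both days. Mrps6 had 2849, 3578, 2422 and 4023, with differences of 0.33 and 0.73.

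Assembly factors differed by complex, where 51.0% of all genes were above zero at day 3 and 51.2% at day 6. For complex I they were above zero in 10 of 14 at each day, with medians of 0.20 and 0.22, and for complex IV in 11 and 13 of 17, with medians of 0.20 and 0.26. Complex III factors were above zero in 3 and 2 of 5, with medians of 0.17 and -0.04, and those of ATP synthase in 3 and 1 of 4, with medians of 0.26 and -0.00784. Pet100, a complex IV factor, had 1155, 1726, 1037 and 1652, with differences of 0.58 and 0.67, and Sco2, which delivers copper, 635, 697, 548 and 938, with differences of 0.14 and 0.78. Ndufaf4 and Ndufaf6 had day 6 differences of 0.53 each, and Foxred1 went from -0.68 at day 3 to 0.34 at day 6. Uqcc2 had differences of 0.52 and 0.59 and Ttc19 of 0.30 and -0.32. Atpaf1, a factor of the synthase head, had 0.54 and 0.13, and Atpaf2 -0.23 and -0.39.

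The citrate cycle and pyruvate dehydrogenase supply the chain with electrons. The citrate cycle list was above zero in 9 of 12 at day 3, with a median of 0.22, and in 2 of 12 at day 6, with a median of -0.17, against 51.0% and 51.2% of all genes. Ogdh, a subunit of the oxoglutarate dehydrogenase complex, was higher in osteogenic medium at both days, with 1196, 1797, 1131 and 1556. Suclg2, of succinyl-CoA ligase, was lower at both, with 5648, 4458, 5557 and 3103. In the pyruvate dehydrogenase list, 5 of 10 were above zero at day 3, close to the share of all genes, and 3 of 10 at day 6. Pdp1, the phosphatase that activates the enzyme, had 1739, 1225, 2130 and 858, with differences of -0.51 and -1.31, and Dlat had 0.25 and -0.41.

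Carriers of the mitochondrial membranes exchange ATP, ADP and phosphate with the cytosol. They were above zero in 4 of 7 at day 3 and 3 of 6 at day 6, near the shares of all genes, 51.0% and 51.2%. The same shares stand beside the other lists of this paragraph. Slc25a5, the adenine nucleotide translocase of growing cells, was at 0.41 and 0.42 and Vdac1, the outer membrane channel, at -0.12 and -0.28. Coenzyme Q enzymes were above zero in 8 of 9 and 5 of 9; Coq3 had 0.43 and 0.25, Pdss2 0.03 and -0.20, and Coq6 was lower by -1.08 from day 3 to day 6 in osteogenic medium. Regulators of mitochondrial biogenesis were above zero in 10 of 14 and 8 of 13. Esrra, an orphan receptor that drives respiratory genes, had 336, 572, 337 and 410.04, with differences of 0.77 and 0.28, and Tfb2m, a mitochondrial transcription factor, 0.11 and 0.38.

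Where a member had another probe set above the floor, both agreed in sign for 38 of 48 members at day 3, 36 of 49 at day 6, 28 of 48 for the days in normal medium and 42 of 48 for the days in osteogenic medium.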

How the data were processed

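The values the authors deposited are linear intensities, 1 for each probe set on each of 4 arrays, labelled per the labels' protocols from total RNA with a 3′ in vitro transcription kit. How probes were summarised, and with which software, is not given in the sources used here. Each array's mean, trimmed by 2% at either end, was 500, a sign of scaling before deposit that removes differences in total RNA per cell. Of 45101 probe sets, 64 were controls, 34945 had 1 gene symbol in GEO's annotation, 932 several and 9160 none in the table used here; those with 1 symbol were used. All 88 members matched RefSeq (GRCm38.p6) by Entrez ID, with 0 symbols updated.

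Controls aside, arrays were scaled to equal 75th percentiles (factors 1.003, 1.019, 0.988 and 0.991), floored at the pooled 50th percentile and taken to log2. A gene was its probe set of highest mean, and counted as measured where 1 or more of a comparison's arrays exceeded the floor. The additive fit used limma 3.58.1 in R 4.3.3 (lmFit, eBayes), with Benjamini-Hochberg adjustment over all genes; on simulated data with known changes the script was checked first. Other steps used Python 3.11.15, numpy 2.4.6 and pandas 2.3.3. The number of arrays limits the precision, as do the floor for dim genes and the choice of probe set. The p-values of the fit do not rest on replicates. A gene's residual is set by how far its medium differences on the separate days disagree, and the moderated variance also draws on all genes. Samples were grouped by their titles and descriptions.

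Named with values were members past 2-fold in any comparison, the 2 highest and 2 lowest of each complex in each medium comparison, catalytic and electron carrier subunits, and isoform sets; of the other lists, the 2 largest day 6 medium differences and any past 2-fold. Ndufb6 (past 1.5-fold at day 3) and the floor genes Cox7b2, Cox7c and Ndufb4 were named after their values were seen. Members and lists were chosen with earlier results of these data known. Alternatives were other scalings, floors, probe set rules, filters, a rule without Sdhaf genes, and unmoderated variances.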

Additional observations from a re-analysis of the deposited data

Results flagged for a closer look

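Several values had opposite signs at the 2 days, osteogenic minus normal medium, with 1 array per group; the difference between the days was not tested for any of them. The median log2 difference was 0.115 at day 3 and -0.0607 at day 6 over the members. The median was 0.128 and -0.117 for complex I, 0.183 and -0.181 for complex II, and 0.173 and -0.0314 for complex III. For complex IV it was 0.0356 and -0.00282, and for ATP synthase 0.0429 and -0.000331, both near zero at each day. The citrate cycle list had 0.216 and -0.171.

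Among single genes, Cox6a2 had -0.574 and 1.66, Ndufa4l2 -0.542 and 1.34, both bounds set by the floor, and Ndufs1 0.447 and -0.339. Cox6a2 and Ndufa4l2 were highest and Ndufs1 lowest on the osteogenic day 6 array, which is the array with the low 18S control signal.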

How the results depend on the processing

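The 20 medians and counts of the members had 200 alternative values. Only the medians could reverse in sign, and of their 50 alternatives 0 reversed and 5 moved. Counts have no sign to reverse. Of 50 alternatives each, 2 moved for members above zero, 6 for members past 1.5-fold and 7 for members past 2-fold. Over the alternatives the members' median ranged from 0.08 to 0.14 for the medium at day 3, from -0.11 to -0.03 at day 6, from -0.0790 to -0.00367 for the days in normal medium, from -0.26 to -0.19 for the days in osteogenic medium and from -0.23 to -0.14 for the change between days. The following left the range that counts as unmoved, and the cause was not tested. With a common median the day 6 median was -0.112, the change between days -0.233, and in normal medium the median was -0.00367 with 39 members above zero and 1 past 1.5-fold; that shift moved the median of all genes to 0.06 and their share above zero to 59.6% in normal medium. With quantile normalization the normal medium median was -0.0369 with 33 above zero, and the osteogenic one -0.195 with 3 past 1.5-fold, as with no further scaling. The mean of all probe sets left 2 members past 1.5-fold at day 3 and 3 at day 6. With the floor at the 40th percentile 1 member passed 2-fold at day 3 and 1 in normal medium, and with a pseudocount 1 at day 3. With the floor at the 60th percentile or the stricter filter, 1 member passed 2-fold for the osteogenic days and 1 for the change between days. With probe sets that have no shared-sequence suffix, 8 members passed 1.5-fold in the change between days. The additive fit gave 0 members under all 10 alternatives run for each effect, but with 1 residual degree of freedom and 0 of 11259 genes called in the reported fit, this says nothing about stability. Of 177 alternative values of the 20 named values past 1.5-fold, 165 were unmoved and 0 reversed. The additive fit is itself paired by day, since it has the day as a term. No other pairing was possible, because each group has 1 array and the replicates carry no numbers to pair by. Leaving out an array leaves no residual degree of freedom in that fit. Dim members (Ndufa4l2, Cox4i2) are limited by the floor.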
